A study of Mus musculus with 12 samples.

Results

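The genes described here are 9 genes of the oligodendrocyte lineage, taken by symbol from 17365 genes in a count table: Olig1, Olig2, Nkx2-2, Sox10, Pdgfra, Cspg4, Gpr17, Cnp and Mbp. No value entered the rule, though the set was proposed with earlier results of these data known, and all 9 had a row. Bulk RNA-seq covered 12 libraries of mouse neural stem cell (NSC) cultures, 4 from each of 3 conditions. In EGF/FGF the cells were kept proliferating with EGF and FGF2, in BMP they were made quiescent with BMP4 alone (d-qNSCs in the study's terms), and in BMP/FGF with BMP4 together with FGF2 (p-qNSCs). Each factor was given at 10 ng/ml for 3 days. Every condition held 2 replicates of ANS4, a line from MF1 mice, and 2 of BL6, a line from C57BL/6 mice. Both lines came from the subventricular zone of mice of 6 to 8 weeks and were used at early passage, and the labels name no mutation or transgene. Each strain is represented by 1 line, so line and strain cannot be told apart, and p-values measure only the spread among these libraries. In the fit over both lines, that spread also holds any difference between the lines in their response to a condition.

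Oligodendrocytes, the myelin-forming glia of the brain, arise from precursor cells, some of which descend from subventricular zone NSCs. Olig1, Olig2, Nkx2-2 and Sox10 are transcription factors that specify the lineage or drive its maturation, while Pdgfra and Cspg4 mark the precursors. Gpr17 is a receptor seen transiently in precursors that have committed to differentiate, and Cnp and Mbp are made in quantity once myelin forms. Olig2 is also present in proliferating NSC cultures and in transit-amplifying cells, and BMP signalling is known to turn precursors away from the oligodendrocyte fate, in part through Id proteins. The 3 conditions allow the lineage genes to be followed from proliferation into each quiescent state, and between the quiescent states.

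Positions are those of GENCODE vM21 on GRCm38, the assembly also called mm10. Olig2 (ENSMUSG00000039830) is at chr16:91225457-91228677 and Olig1 (ENSMUSG00000046160) at chr16:91269772-91271933, both on the plus strand, 41094 bases apart with no protein-coding gene between them. Nkx2-2 (ENSMUSG00000027434) is at chr2:147177546-147194243 and Sox10 (ENSMUSG00000033006) at chr15:79154908-79165240, both on the minus strand. On the plus strand are Pdgfra (ENSMUSG00000029231) at chr5:75152292-75198215, Cspg4 (ENSMUSG00000032911) at chr9:56865033-56899870 and Cnp (ENSMUSG00000006782) at chr11:100574904-100591729. Mbp is ENSMUSG00000041607 and Gpr17 is ENSMUSG00000052229. Exons of a gene on the opposite strand cover 188 bases of Gpr17 (3.62% of its exon bases, from Lims2), 154 bases of Cnp (4.23%, from Dnajc7), 278 bases of Nkx2-2 (9.67%, from Nkx2-2os) and 157 bases of Olig1 (7.26%, from Gm15966). Pdgfra shares 456 bases (4.55%) with Gm42802 and 166 bases (1.66%) with Gm42803. The 3 Gm genes have no row in the count table. Reads from such shared bases cannot be told apart without strand, which the sources used here do not give.

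RefSeq's promoter table for GRCm38.p6 (250 bases before to 50 after the start) held 5 of the 9 genes: Olig2, Nkx2-2, Pdgfra, Cspg4 and Cnp. Olig1, Sox10, Mbp and Gpr17 were not matched. The windows were searched on both strands for CANNTG, the E-box read by basic helix-loop-helix factors such as Olig2, for its form CAGCTG, for ACAAAG, a core read by Sox factors, and for GGCGCC, a GC-rich core reported for BMP-activated Smad proteins. Every match to the special form is also one to the general E-box. Of the 32851 promoters in the table, 72.3% held the general E-box, 16.3% its special form, 18.7% the Sox core and 11.9% the Smad core. The Smad core was found in the promoters of Olig2, at 2 places, and Cspg4, at 1 place. The E-box was found at 3 places in Nkx2-2, at 2 in Pdgfra and at 1 in Cnp, the Sox core at 1 place in Cnp, and the special E-box in none of the 5. The windows below show every match in these promoters, so that each can be read with the bases around it. Capitals mark the match, each sequence runs 5′ to 3′ on the strand of its gene, and a match is a description of letters only.
Olig2, chr16:91225328-91225357, plus strand: ctctctaccgcgGGCGCCcattggctgtgt
Olig2, chr16:91225443-91225472, plus strand: gcccagctcattGGCGCCtctgcccctcca
Cspg4, chr9:56864997-56865026, plus strand: aagcgcgggtctGGCGCCtgccccgccccc
Nkx2-2, chr2:147186605-147186634, minus strand: cccacaatttcaCATCTGcaaatactgtct
Nkx2-2, chr2:147186582-147186611, minus strand: actgtcttcatcCACTTGactcccaagacc
Nkx2-2, chr2:147186558-147186587, minus strand: aagacccgcccaCACGTGgccaacctttgc
Pdgfra, chr5:75152057-75152086, plus strand: cccaccccacccCATCTGgtttgctccccc
Pdgfra, chr5:75152256-75152285, plus strand: atttactttaagCAAATGattagtttttgg
Cnp, chr11:100574803-100574832, plus strand: gcattgagagtcCAGGTGtgcttttacttt
Cnp, chr11:100574760-100574789, plus strand: aacttttaaggaACAAAGaggtggcgtggc

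Library totals ran from 18069052 to 19451818 estimated counts, and values are given as CPM, counts scaled to a common library size with TMM factors of 0.972 to 1.03, so that 1 count is worth 0.0514 to 0.0553 CPM. Of the 17365 genes, 13312 passed edgeR's filter on low counts and were tested, among them 8 of the 9 genes. Mbp, at 5 to 15 counts in EGF/FGF, passed only with the quiescent libraries, where it is higher, so its difference from EGF/FGF is given as a description, with no test. Sox10 did not pass. A gene was called at an adjusted p under 0.05 by edgeR's quasi-likelihood test, with line as a term and Benjamini-Hochberg adjustment over all genes tested. In bulk RNA, fewer cells that make a transcript and less of it per cell cannot be told apart.

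The lineage genes differed in level over several orders of magnitude, and their order differed between conditions. Per kilobase of transcript (the median length of the protein-coding transcripts of each gene), the highest level in EGF/FGF was that of Olig1 at 428.5 ± 18.4 CPM per kb (SD, n = 4), followed by Olig2 at 236 ± 9.44 and Cnp at 76.9 ± 8.17. Nkx2-2, Pdgfra and Cspg4 followed at 25.4 ± 1.803, 10.5 ± 0.791 and 4.76 ± 0.761. Gpr17, Mbp and Sox10 were under 1 CPM per kb in every EGF/FGF library. The libraries of neighbours in this order did not overlap, except those of Gpr17 and Mbp.

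In BMP, Olig1 (219 ± 58.4 CPM per kb) and Cnp (208 ± 10.99) overlapped at the top of the order, above Olig2 at 109 ± 29.4. Gpr17 came next at 42.8 ± 16.6 and overlapped Pdgfra, which overlapped Nkx2-2, and Cspg4 overlapped Mbp at the lower end. In BMP/FGF, Cnp (196 ± 3.45) and Olig1 (176 ± 13.7) overlapped, and every other neighbour in the order was separate. Annotated transcripts of Pdgfra run from 442 to 6834 bases and those of Mbp from 354 to 4797, so their places depend on the isoform present. Olig1, Olig2, Cspg4, Cnp and Gpr17 have 1 annotated protein-coding transcript each.

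**Figure D1:**
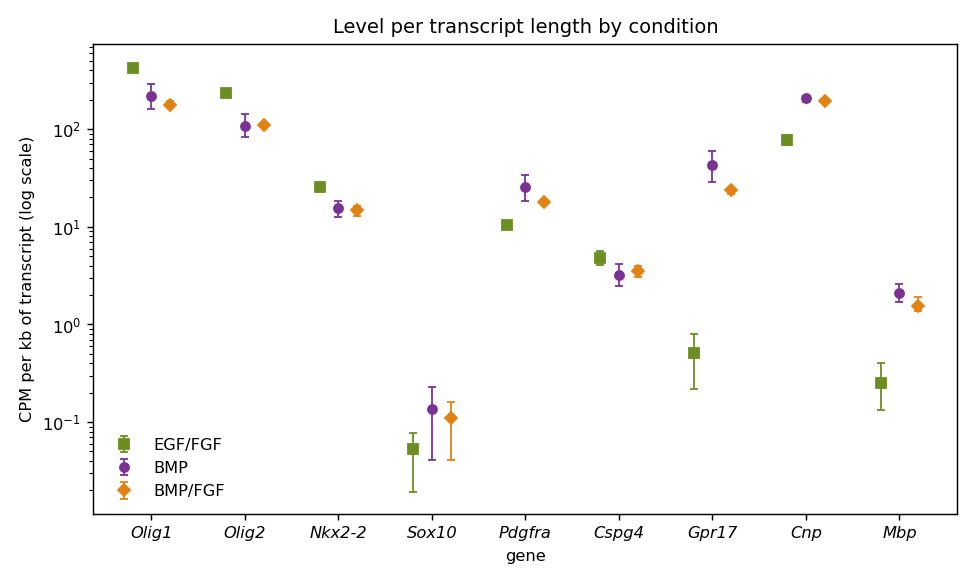
Level of each gene per kilobase of transcript (CPM per kb, log scale) in EGF/FGF, BMP and BMP/FGF; symbols are means of 4 libraries and bars reach the lowest and highest library. Olig1 and Olig2 are highest in EGF/FGF, while Gpr17, Cnp, Pdgfra and Mbp are higher in both quiescent conditions.

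Both quiescent conditions had less Olig1, Olig2 and Nkx2-2 than proliferating cells, with no overlap of the 4 libraries on either side. Olig1, a factor required for remyelination, was at 914 and 976 CPM in ANS4 and 935 and 881 in BL6 under EGF/FGF. Under BMP it was at 348 and 398 CPM in ANS4 and 523 and 628 in BL6, and under BMP/FGF at 383 and 420 in ANS4 and 353 and 363 in BL6. The BMP libraries were the most spread, with both BL6 values above both ANS4 values. The log2 fold change of Olig1 was -0.98 ± 0.12 (SE) in BMP (adjusted p = 1.05e-06) and -1.28 ± 0.13 in BMP/FGF (adjusted p = 3.46e-08), edgeR quasi-likelihood test.

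Olig2, the factor without which no oligodendrocyte precursors are specified in the spinal cord, was likewise lower in quiescence. Its EGF/FGF levels were 600 and 620 CPM in ANS4 and 608 and 564 in BL6. BMP libraries held 218 and 210 CPM in ANS4 and 306 and 365 in BL6, and BMP/FGF libraries 293 and 292 in ANS4 and 270 and 269 in BL6. Olig2 was thus lowest in BMP for ANS4 and lowest in BMP/FGF for BL6. Over both lines its log2 fold change was -1.14 ± 0.12 in BMP (adjusted p = 9.24e-08) and -1.09 ± 0.12 in BMP/FGF (adjusted p = 1.73e-07) by edgeR.

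The count of Olig1 relative to that of its neighbour Olig2 also differed between conditions. The ratio was 1.55 ± 0.023 (SD, n = 4) in EGF/FGF, 1.73 ± 0.12 in BMP and 1.35 ± 0.062 in BMP/FGF. Its lowest and highest values were 1.52 and 1.58 in EGF/FGF, 1.598 and 1.894 in BMP, and 1.31 and 1.44 in BMP/FGF, so that the 3 ranges did not overlap. The ratio is of counts and is not corrected for transcript length.

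Nkx2-2, a homeodomain factor of the precursor to oligodendrocyte transition, was at 36.5 and 43.1 CPM in ANS4 and 41.9 and 39.9 in BL6 when cells proliferated. It was at 20.2 and 22.4 CPM in ANS4 and 27.0 and 29.5 in BL6 with BMP4 alone, and at 22.3 and 26.2 in ANS4 and 20.5 and 24.4 in BL6 with FGF2 added. The quiescent libraries were all lower, and those of BMP and BMP/FGF overlapped. It fell by 0.71 ± 0.10 on the log2 scale in BMP (edgeR adjusted p = 5.05e-06) and by 0.79 ± 0.10 in BMP/FGF (adjusted p = 1.60e-06). Sox10, which switches on myelin genes and is carried by the lineage from the precursor stage onward, was close to absent. EGF/FGF libraries held 3, 3, 4 and 1 counts, BMP libraries 5, 2, 9 and 12, and BMP/FGF libraries 6, 8, 6 and 2 (ANS4 before BL6), and the groups overlapped. An exact two-sided permutation test on CPM, for which the smallest p with 4 against 4 libraries is 0.0286, gave p = 0.114 for BMP and p = 0.114 for BMP/FGF against EGF/FGF, and p = 0.714 between the quiescent conditions. In an edgeR fit without the filter the log2 changes were 1.32 ± 0.58 (adjusted p = 0.059) in BMP and 1.05 ± 0.61 (adjusted p = 0.15) in BMP/FGF against EGF/FGF. A difference in Sox10 was therefore not detectable at this depth.

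**Figure D2:**
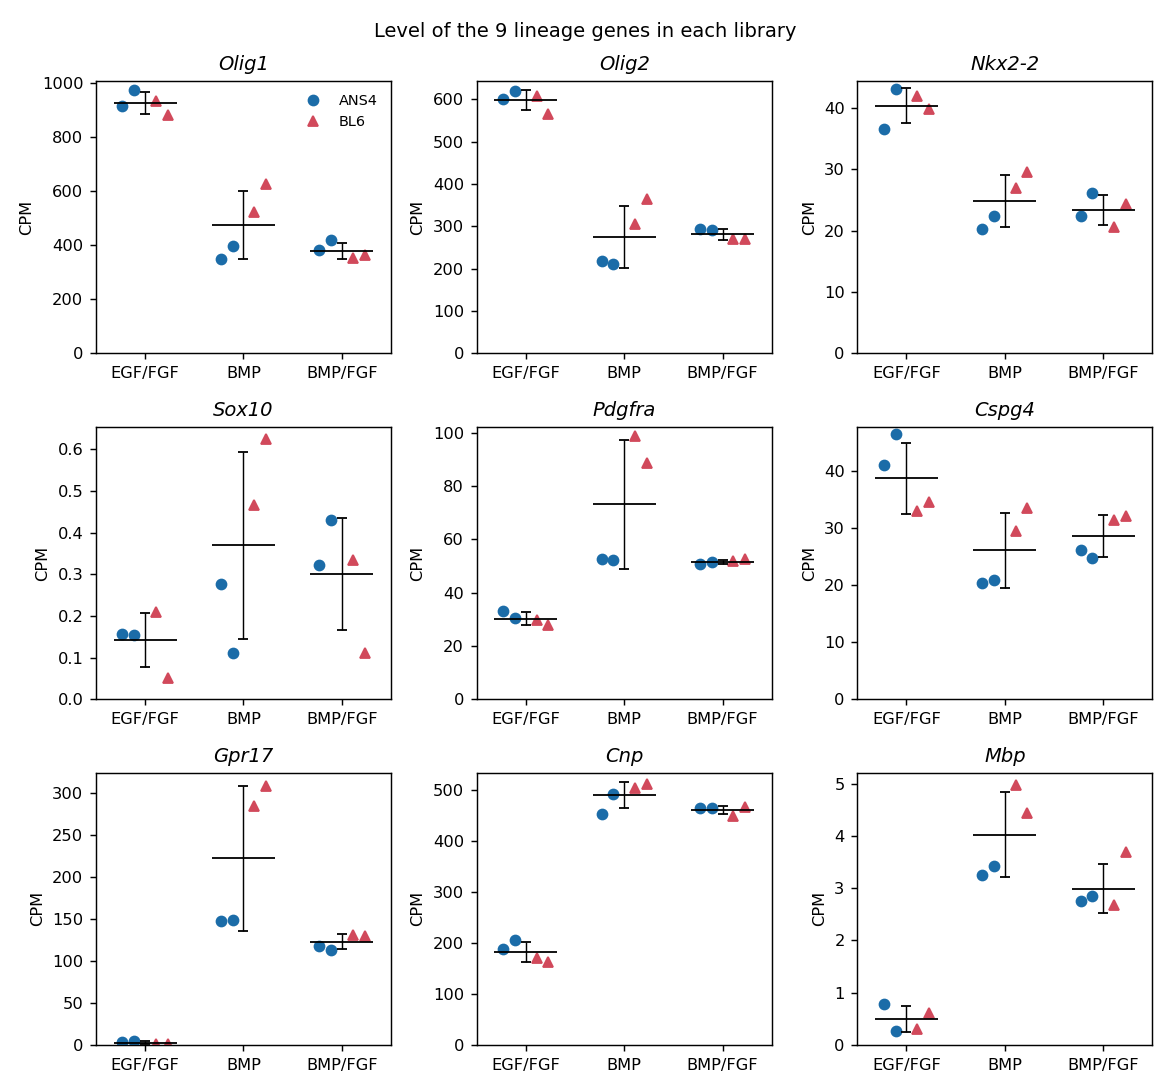
Level of each of the 9 genes (CPM, linear axes from 0, each panel with its own scale) in the 12 libraries; circles are ANS4, triangles BL6, lines and bars the mean and SD of 4 libraries. Olig1, Olig2 and Nkx2-2 sit lower in both quiescent conditions, Gpr17, Cnp and Mbp higher, and in BMP the BL6 libraries of Gpr17 and Pdgfra lie above the ANS4 libraries. Sox10 has 12 counts or fewer in every library.

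The precursor surface genes moved apart. Pdgfra, the receptor through which PDGF-A drives precursor division, was at 33.3 and 30.3 CPM in ANS4 and 29.7 and 27.8 in BL6 under EGF/FGF. In BMP it was at 52.6 and 52.4 CPM in ANS4 and 98.8 and 88.9 in BL6, and in BMP/FGF at 50.6 and 51.4 in ANS4 and 51.9 and 52.6 in BL6. The BL6 libraries in BMP stood above all others, while the remaining 6 quiescent libraries lay within 50.6 to 52.6 CPM. Pdgfra rose by 1.24 ± 0.14 on the log2 scale in BMP (edgeR adjusted p = 3.02e-07) and by 0.76 ± 0.14 in BMP/FGF (adjusted p = 9.60e-05).

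Cspg4, which encodes the NG2 proteoglycan of the same precursors and of pericytes, was lower in quiescence. In EGF/FGF it was at 40.9 and 46.4 CPM in ANS4 and 32.9 and 34.6 in BL6. The BMP libraries held 20.3 and 20.9 CPM in ANS4 and 29.4 and 33.5 in BL6, overlapping EGF/FGF, and the BMP/FGF libraries 26.1 and 24.7 in ANS4 and 31.4 and 32.01 in BL6. The log2 fold change was -0.59 ± 0.14 in BMP (edgeR adjusted p = 9.04e-04) and -0.46 ± 0.14 in BMP/FGF (adjusted p = 0.0065). In BL6 alone Cspg4 did not pass the test in either comparison.

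Of the genes of the later lineage, Gpr17 and Cnp were higher in both quiescent conditions. Gpr17, a brake on the last step of oligodendrocyte maturation, was at 3.73 and 4.19 CPM in ANS4 and 1.14 and 1.602 in BL6 under EGF/FGF. Under BMP it reached 148 CPM in both ANS4 libraries and 285 and 309 in BL6, and under BMP/FGF 118 and 113 in ANS4 and 130 in both BL6 libraries. All quiescent libraries were above all proliferating ones, and all BMP above all BMP/FGF libraries. Gpr17 was 79.7-fold higher in BMP (log2 fold change 6.32 ± 0.28, edgeR adjusted p = 6.33e-13) and 45.7-fold higher in BMP/FGF (5.51 ± 0.28, adjusted p = 3.87e-12). Lims2, whose exons overlap Gpr17 on the other strand, had between 1 and 7 counts in proliferating libraries, between 108 and 313 with BMP4 alone and between 118 and 138 with FGF2 added, and what shared reads add to either gene was not tested.

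Cnp, a cyclic nucleotide phosphodiesterase of the myelin sheath, was already well expressed in proliferating cells. EGF/FGF libraries held 187 and 206 CPM in ANS4 and 170 and 162 in BL6. The BMP values were 453 and 491 in ANS4 and 504 and 511 in BL6, and the BMP/FGF values 464 in both ANS4 libraries and 449 and 466 in BL6, all above every proliferating library. Cnp rose by 1.44 ± 0.07 in BMP (edgeR adjusted p = 2.57e-12) and by 1.35 ± 0.07 in BMP/FGF (adjusted p = 6.29e-12) on the log2 scale. Dnajc7, which overlaps its exons, did not follow, its counts lying between 2419 and 2802 in proliferating libraries, between 2376 and 3080 with BMP4 alone and between 2345 and 2616 with FGF2 added.

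Mbp, which compacts the myelin membrane and is among the most abundant transcripts of mature oligodendrocytes, stayed low throughout. EGF/FGF libraries held 15, 5, 6 and 12 counts, BMP libraries 59, 62, 96 and 85, and BMP/FGF libraries 51, 53, 48 and 66 (ANS4 before BL6). The quiescent libraries were all above the proliferating ones. The fitted log2 difference of Mbp was 3.01 in BMP and 2.59 in BMP/FGF with edgeR, and 1.81 and 1.46 with limma on the authors' log2 table. Even in BMP the level was 4.02 ± 0.819 CPM (SD, n = 4).

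Leaving Mbp aside, the 7 other tested genes were called in each comparison with EGF/FGF, 3 higher (Pdgfra, Gpr17, Cnp) and 4 lower (Olig1, Olig2, Nkx2-2, Cspg4). The background was 79.6% of all tested genes called in BMP (40.8% higher, 38.8% lower) and 78.9% in BMP/FGF (40.9% higher, 38.0% lower), so a call by itself sets the lineage genes little apart. With the study's further requirement of a log2 change above 1.5, only Gpr17 of the 7 was called in each, against 17.8% and 16.7% of all genes. The 4 libraries of each side did not overlap for 6 of the 7 genes in BMP (71.1% of all genes), Cspg4 being the exception, and for all 7 in BMP/FGF (75.8%). The comparisons share their EGF/FGF libraries, so the likeness of their values is not independent. The median over all tested genes was 0.02 in each.

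**Figure D3:**
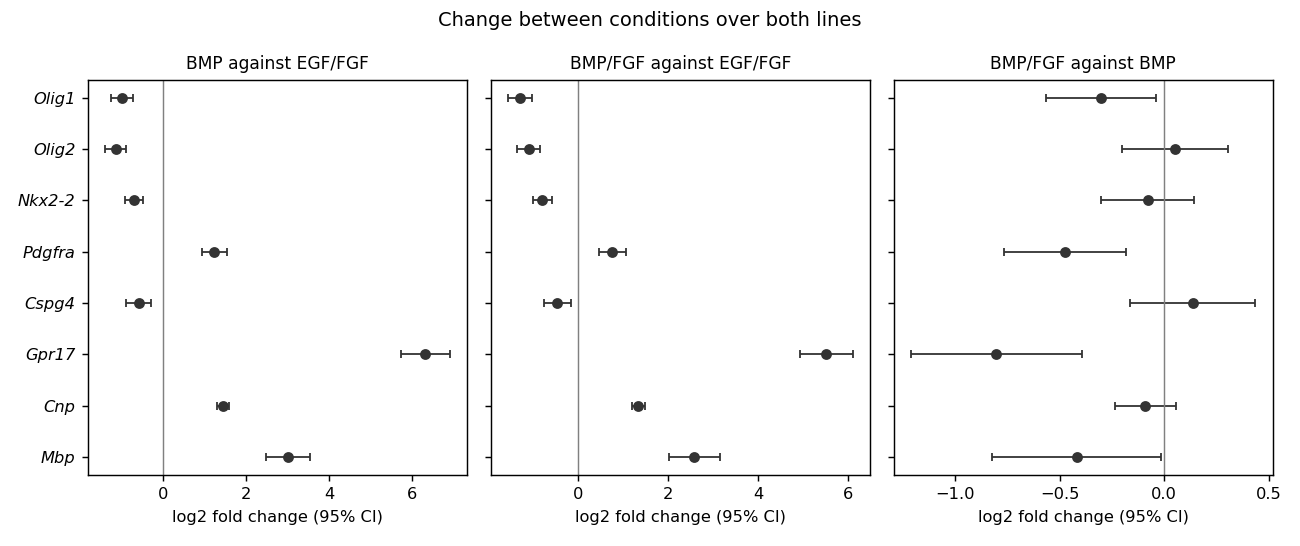
Log2 fold change of the 8 tested genes in each comparison, over both lines, with 95% confidence intervals from edgeR. In the comparisons with EGF/FGF 4 genes lie to each side of 0, where Mbp is a description only, and between the quiescent conditions the intervals of Pdgfra and Gpr17 lie below 0, as do those of Olig1 and Mbp, which did not pass after adjustment.

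Between the quiescent states, over both lines, only Gpr17 and Pdgfra of the 8 genes were called, both lower in BMP/FGF, against 41.4% of all tested genes. None of the 8 passed the fold threshold as well, which 1.59% of all genes did. Gpr17 fell by 0.80 ± 0.19 on the log2 scale (edgeR adjusted p = 0.0031), with all 4 BMP/FGF libraries under all 4 BMP libraries (35.6% of all genes did not overlap). Pdgfra fell by 0.47 ± 0.14 (adjusted p = 0.011), with overlapping libraries. Olig1 (-0.30 ± 0.12, adjusted p = 0.061), Mbp (-0.42 ± 0.19, adjusted p = 0.092), Nkx2-2 (-0.08 ± 0.11), Cnp (-0.09 ± 0.07), Cspg4 (0.14 ± 0.14) and Olig2 (0.05 ± 0.12) were not called. Without replicate 1 of BL6 in BMP, the count fell from 2 genes to 1.

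These averages hid a difference between the lines, which was tested as an interaction in edgeR (BL6 minus ANS4). For BMP against EGF/FGF the change differed between lines in 6 of the 8 genes, among which Mbp is a description only. The share of all tested genes was 9.02%. Each time the BL6 value was the more positive. The difference on the log2 scale was 2.52 ± 0.20 for Gpr17 (adjusted p = 1.28e-06), 0.98 ± 0.11 for Pdgfra (adjusted p = 4.97e-05), 0.98 ± 0.13 for Cspg4 (adjusted p = 1.65e-04), 0.71 ± 0.10 for Olig2 (adjusted p = 3.99e-04), 0.68 ± 0.12 for Olig1 (adjusted p = 0.0016) and 0.35 ± 0.09 for Cnp (adjusted p = 0.024). Nkx2-2 (0.37 ± 0.15, adjusted p = 0.15) was not called. Mbp was at 0.64 ± 0.57, given without a test because of its few counts in EGF/FGF. Within the lines, Olig2 fell by 1.51 ± 0.07 in ANS4 and by 0.81 ± 0.07 in BL6, and Pdgfra rose by 0.72 ± 0.08 in ANS4 and by 1.71 ± 0.08 in BL6. Cspg4 fell by 1.08 ± 0.09 in ANS4 (adjusted p = 5.94e-09) and was at -0.10 ± 0.09 in BL6 (adjusted p = 0.32).

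The line difference depended on the condition. In BMP, BL6 was above ANS4 for Gpr17 (log2 difference 1.00 ± 0.07), Pdgfra (0.84 ± 0.07), Olig2 (0.65 ± 0.07), Olig1 (0.63 ± 0.08), Cspg4 (0.61 ± 0.09) and Nkx2-2 (0.41 ± 0.11), that is 6 of the 8 genes against 23.0% of all genes called, 12.3% of all genes being higher in BL6. In EGF/FGF the called genes were Gpr17 (-1.52 ± 0.19), Cspg4 (-0.37 ± 0.09) and Cnp (-0.24 ± 0.06), all lower in BL6, against 6.75% of all genes. The interaction of Gpr17 thus holds a lower start in BL6, at 22 and 31 counts, as well as a higher end. In BMP/FGF no gene of the 8 was called by edgeR, where 0.736% of all genes were, and 2 genes had an unadjusted p under 0.05, Cspg4 (0.32 ± 0.09) and Gpr17 (0.17 ± 0.07). Averaged over conditions, Pdgfra (0.24 ± 0.05), Cspg4 (0.19 ± 0.05) and Olig2 (0.16 ± 0.04) were called higher in BL6, against 11.9% of all genes, a count of 3 that fell to 1 without replicate 1 of ANS4 in EGF/FGF or without any 1 of the 4 BMP/FGF libraries.

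The difference between BMP/FGF and BMP accordingly differed by line in 5 of the 8 genes, all negative, against 13.5% of all genes (6.86% negative, 6.67% positive). The interaction was -0.83 ± 0.09 for Gpr17, -0.80 ± 0.11 for Pdgfra, -0.79 ± 0.12 for Olig1, -0.77 ± 0.10 for Olig2 and -0.52 ± 0.16 for Nkx2-2, with edgeR adjusted p of 6.40e-05, 2.01e-04, 4.27e-04, 2.01e-04 and 0.040. Olig2 was higher in BMP/FGF than in BMP in ANS4 (0.45 ± 0.07, adjusted p = 1.31e-04) and lower in BL6 (-0.32 ± 0.07, adjusted p = 0.0017). Olig1 was at 0.11 ± 0.08 in ANS4 (adjusted p = 0.35) and fell by 0.68 ± 0.08 in BL6 (adjusted p = 3.26e-06). Pdgfra was at -0.04 ± 0.08 in ANS4 (adjusted p = 0.72) and fell by 0.84 ± 0.07 in BL6 (adjusted p = 6.31e-08), so that the lines did not share the call made over both. Gpr17 fell in both lines, by 0.35 ± 0.07 in ANS4 and by 1.19 ± 0.07 in BL6. For BMP/FGF against EGF/FGF the lines differed in 2 genes, Gpr17 (1.69 ± 0.20) and Cspg4 (0.69 ± 0.13), both positive, against 4.98% of all genes (3.16% positive, 1.83% negative).

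**Figure D4:**
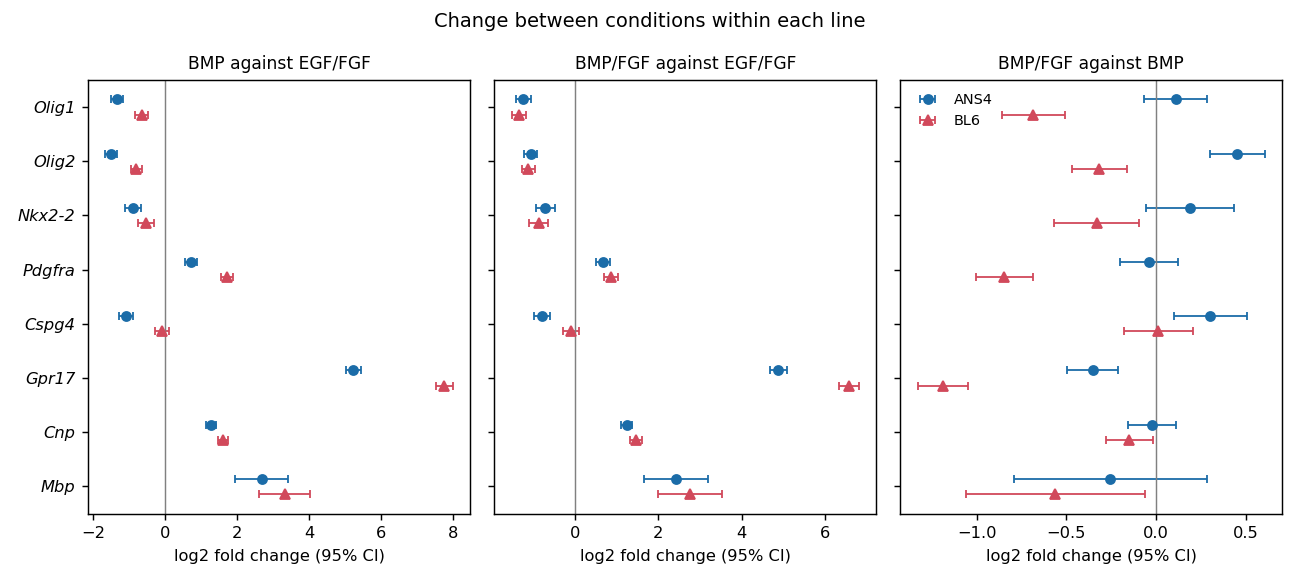
Log2 fold change of the 8 tested genes within ANS4 (circles) and BL6 (triangles), 2 libraries against 2, with 95% confidence intervals from the edgeR fit of 6 groups. In BMP against EGF/FGF every BL6 value lies to the right of its ANS4 value, and between the quiescent conditions Olig2 lies on opposite sides of 0. In the comparisons with EGF/FGF, Mbp is a description only.

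Other genes of the lineage were examined as lists fixed by name, and genes of a list that passed the filter only with the quiescent libraries are given by their counts, so that the number of rises in a list with such genes is a description. Among 10 tested transcription factors of the lineage or its progenitors, 10 rose in BMP (40.8% of all genes were called higher) and none fell, with a median log2 change of 0.70. Myt1, a zinc finger factor of precursors, rose by 3.33 ± 0.23, from 11.2 ± 3.85 to 115 ± 40.1 CPM (SD, n = 4). Myrf, the factor that activates myelin genes in differentiating oligodendrocytes, rose by 2.37 ± 0.18 from 2.27 to 11.9 CPM, and Sox6, which holds precursors undifferentiated, by 1.38 ± 0.09. Sox8, a close relative of Sox10, rose by 0.59 ± 0.07. The direction of the list was thus opposite to that of Olig1, Olig2 and Nkx2-2.

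In BMP/FGF against EGF/FGF 7 of the 10 factors rose and none fell (40.9% of all genes were called higher), with a median of 0.49. Myt1 rose by 2.54 ± 0.23, Myrf by 1.40 ± 0.20 and Sox6 by 0.95 ± 0.09. Directly between the quiescent states, 8 of the 10 were lower in BMP/FGF than in BMP and none was higher, against 21.3% of all genes called lower. The falls were 0.96 ± 0.16 for Myrf, 0.79 ± 0.20 for Myt1 and 0.49 ± 0.10 for Zfp488, a zinc finger partner of Olig2.

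Of 11 tested precursor surface and matrix genes, 9 rose and 1 fell in BMP, against 40.8% and 38.8% of all genes. In BMP/FGF 8 rose and 1 fell, against 40.9% and 38.0%. Lhfpl3, a tetraspan protein typical of precursors, rose by 3.08 ± 0.16 in BMP and 3.29 ± 0.16 in BMP/FGF, and Tnr, the matrix protein tenascin-R, by 2.00 ± 0.12 and 1.78 ± 0.12. Of the 11, C1ql1 and Neu4 passed only with the quiescent libraries. C1ql1, a secreted protein of precursors, had between 7 and 11 counts in EGF/FGF, between 45 and 62 in BMP and between 58 and 79 in BMP/FGF, and Neu4, a sialidase, had 0 or 1 count in EGF/FGF. Ptprz1, a receptor phosphatase of precursors and of NSCs, rose by 0.53 ± 0.08 and 0.74 ± 0.08 from 2017 CPM. Xylt1, which starts chondroitin sulphate chains, fell by 1.76 ± 0.08 and 1.57 ± 0.08. Between the quiescent states C1ql1 (0.45 ± 0.16) and Ptprz1 (0.21 ± 0.08) were higher in BMP/FGF and Megf11 (-0.39 ± 0.15) lower.

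Of the PDGF genes, Pdgfa, a ligand of Pdgfra, fell by 0.75 ± 0.12 in BMP and by 0.48 ± 0.12 in BMP/FGF, from 18.3 ± 1.42 CPM in EGF/FGF. Pdgfra rose where Pdgfa fell, and Pdgfc rose as well. Pdgfc rose by 0.74 ± 0.14 and 0.51 ± 0.14, while Pdgfrb, the second receptor, which passed only with the quiescent libraries, had between 6 and 14 counts in EGF/FGF, between 23 and 41 in BMP and between 24 and 26 in BMP/FGF. For BMP/FGF against BMP edgeR called none of the 3 (1, Pdgfa, had an unadjusted p under 0.05), against 41.4% of all genes. Pdgfb and Pdgfd were too low to be tested.

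Genes of committed precursors rose in 5 and fell in 3 of 8 cases, in BMP and in BMP/FGF, with medians of 1.43 and 1.06. Over all genes, 40.8% were called higher and 38.8% lower in BMP, and 40.9% and 38.0% in BMP/FGF. Of the 8, Lims2, whose counts stand beside those of Gpr17, and Enpp6 passed only with the quiescent libraries. Enpp6, a choline phosphodiesterase of newly forming oligodendrocytes, had between 2 and 5 counts in EGF/FGF, between 58 and 158 in BMP, and between 22 and 45 in BMP/FGF. Bcas1, which marks early myelinating cells, rose by 2.04 ± 0.18 in BMP, and Sirt2, a deacetylase of the myelin sheath, by 1.34 ± 0.09 in BMP/FGF. Fyn, a kinase that promotes morphological maturation, fell by 0.61 ± 0.08 in BMP and by 0.55 ± 0.08 in BMP/FGF, and Rras2 by 0.60 ± 0.07 and 0.69 ± 0.07. Itpr2 fell by 0.32 ± 0.07 in BMP and by 0.29 ± 0.07 in BMP/FGF. Between the quiescent states 5 of the 8 were lower in BMP/FGF, against 21.3% of all genes, led by Enpp6 (-1.42 ± 0.20) and Bcas1 (-0.76 ± 0.17).

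Myelin genes were mixed. Of 18 tested, 11 rose and 5 fell in BMP (40.8% and 38.8% of all genes), and 11 rose and 3 fell in BMP/FGF (40.9% and 38.0%). As 7 of the 18 passed only with the quiescent libraries, these counts support no direction. Fa2h, which makes hydroxylated myelin lipids, had between 0 and 6 counts in EGF/FGF, between 43 and 126 in BMP and between 29 and 42 in BMP/FGF. Mal, a protein of myelin membranes, had between 6 and 20 counts in EGF/FGF, between 70 and 128 in BMP and between 138 and 159 in BMP/FGF. Anln, whose product anillin also serves cell division, fell by 2.30 ± 0.07 in BMP and by 2.60 ± 0.07 in BMP/FGF. Trf, the iron carrier transferrin, fell by 2.14 ± 0.13 and 1.05 ± 0.12, and Pllp by 1.07 ± 0.17 and 0.93 ± 0.17.

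Markers of mature myelin that are not shared with other cells were near the limit of counting. Mag had 0 or 1 count in EGF/FGF, between 4 and 19 in BMP and between 1 and 7 in BMP/FGF, Mog at most 5 counts in any library, and Ermn at most 6. None of the 3 passed the filter. Between the quiescent states 7 of the 18 tested myelin genes were higher in BMP/FGF and 6 lower, against 20.1% and 21.3% of all genes. Leaving out genes that averaged under 1 CPM, the named rises were those of Mobp (1.18 ± 0.16) and Trf (1.09 ± 0.14), and the largest falls those of Fa2h (-1.09 ± 0.25), Gal3st1 (-0.65 ± 0.18) and Cldn11 (-0.63 ± 0.19).

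**Figure D5:**
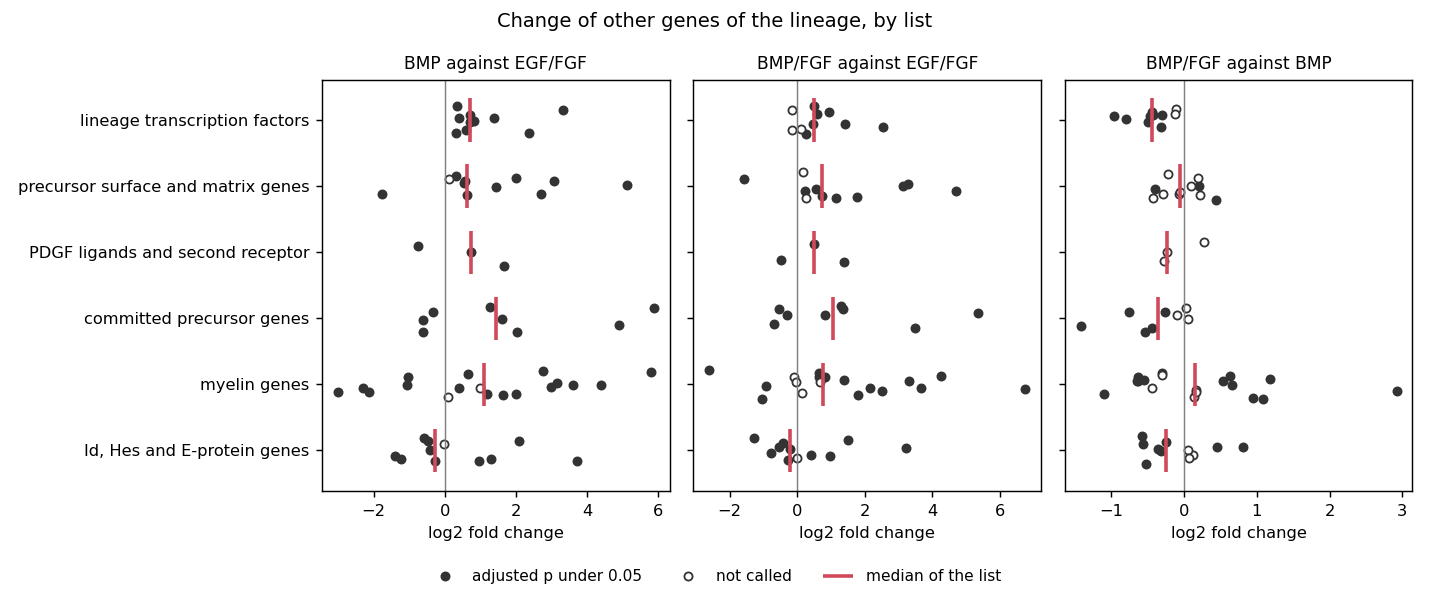
Log2 fold change of every tested gene of the 6 lists in the 3 comparisons (filled points passed an adjusted p of 0.05, vertical bars are list medians, vertical scatter within a list has no meaning, and each panel has its own axis). The 10 transcription factors all lie to the right of 0 in BMP against EGF/FGF and to the left between the quiescent conditions, where 8 of them passed.

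Among genes that restrain or partner the Olig factors, Id4 rose by 3.73 ± 0.13 in BMP and by 3.21 ± 0.13 in BMP/FGF, Id2 by 2.08 ± 0.08 and 1.499 ± 0.08, and Id1 by 1.29 ± 0.10 and 0.98 ± 0.10. Id proteins bind E-proteins, the dimer partners of Olig1 and Olig2, and block their action on DNA. Id3, in contrast, fell by 0.59 ± 0.11 in BMP and by 0.53 ± 0.11 in BMP/FGF. The Notch targets Hes1 and Hes5 fell by 1.40 ± 0.15 and 1.22 ± 0.17 in BMP, and Hes1 by 1.27 ± 0.14 in BMP/FGF. The E-protein gene Tcf3 fell by 0.78 ± 0.08 in BMP/FGF. Of the 11 genes of this list, 4 rose and 6 fell in each comparison with EGF/FGF. Over all genes, 40.8% rose and 38.8% fell in BMP, and 40.9% and 38.0% in BMP/FGF. Between the quiescent states 2 of the list were higher in BMP/FGF, Hes5 (0.81 ± 0.18) and Hey1 (0.45 ± 0.08), against 20.1% of all genes. The 6 that were lower, against 21.3%, included Id2 (-0.58 ± 0.08), Lingo1 (-0.55 ± 0.10) and Id4 (-0.51 ± 0.10).

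The line difference in BMP extended to the lists. For BMP against EGF/FGF the interaction was positive (BL6 the higher) in 5 of the 10 transcription factors, 6 of the 11 precursor surface and matrix genes and 3 of the 8 committed precursor genes, and negative in 0, 0 and 1 of them, against 5.39% and 3.63% of all genes. Myt1 had the largest value of the named factors, 1.76 ± 0.13 (edgeR adjusted p = 5.58e-07), and Lhfpl3 that of the surface genes, 1.16 ± 0.12 (adjusted p = 2.02e-05). Of the 18 myelin genes 2 were positive and 2 negative, and of the 11 Id, Hes and E-protein genes 0 were positive and 3 negative. Outside the lineage, 5 of 8 tested neuroblast markers were positive and 0 negative, and of 9 astrocyte markers 1 was positive and 1 negative.

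Markers of other cell types moved with the conditions and, in part, with the lines. The 9 neuroblast markers summed to 300 to 332 CPM in EGF/FGF, 828 to 829 in ANS4 and 1395 to 1496 in BL6 under BMP, and 366 to 418 in BMP/FGF. Of the 8 tested, 7 rose in BMP (40.8% of all genes), and 6 rose and 2 fell in BMP/FGF (40.9% and 38.0%). Among them, Dlx5 passed only with the quiescent libraries, so the number of rises is a description. Dlx5 had 0 or 1 count in EGF/FGF, between 147 and 423 in BMP and between 17 and 34 in BMP/FGF. The sum was highest in the BL6 libraries of BMP, as Gpr17 and Pdgfra were. The part of neuroblasts in these values was not tested. The 9 astrocyte markers summed to 3449 to 3459 CPM in ANS4 and 2871 to 2926 in BL6 under EGF/FGF, and to between 12490 and 12720 in BMP/FGF. In BMP their sum was between 10320 and 10370 in ANS4 and lower in BL6, between 8401 and 8433, and Gfap rose by 3.04 ± 0.12 in BMP and by 4.005 ± 0.13 in BMP/FGF. Schwann cell and neural crest markers, of which 6 of 7 had a row, summed to 15.7 to 17.7 CPM in EGF/FGF, between 37.9 and 40.7 in BMP and between 36.7 and 44.9 in BMP/FGF. Endothelial markers (4 of 6 with a row) summed to 39.1 to 47.2, 5.58 to 9.30 and 15.0 to 19.1 CPM in the same order.

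Microglial markers (6 of 12 with a row) summed to 54.8 to 66.2 CPM in EGF/FGF, between 56.0 and 68.0 in BMP and between 76.8 and 84.5 in BMP/FGF, with Csf1r at 0 in every BMP library. Pericyte and fibroblast markers (9 of 10 with a row), of interest because pericytes also make the Cspg4 product, summed to 90.2 to 103 CPM in EGF/FGF, and between 90.0 and 98.8 in BMP/FGF, with Lum at 0 in every BMP library. In BMP the sum was between 89.2 and 94.4 in ANS4 and between 52.6 and 55.7 in BL6. Most of the sum was Notch3, at means of 85.3 CPM in EGF/FGF, 60.1 in BMP and 69.2 in BMP/FGF. Its change in BMP was more negative in BL6 (interaction -0.71 ± 0.11, edgeR adjusted p = 5.42e-04). Of the 6 tested markers, 2 rose and 3 fell in BMP, against 40.8% and 38.8% of all genes. Mean Acta2 was 1.64 CPM in EGF/FGF and 3.14 in BMP, and mean Tagln 3.92 and 7.65. In the other direction, mean Col1a1 was 2.02 CPM in EGF/FGF and 0.656 in BMP, and mean Col3a1 1.09 and 0.013. What these cell types add to the lineage genes was not tested.

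Across the 12 libraries, which fall into 3 conditions and 2 lines, the log2 CPM of Olig1 followed that of Nkx2-2 (Pearson r = 0.98) and Olig2 (0.96). Gpr17 followed Cnp (0.99) and Mbp (0.96), and Olig2 ran opposite to Cnp (-0.91). These values describe mainly the difference between EGF/FGF and the rest. Of 12466 tested genes that averaged 1 CPM or more, those most like Olig1 were Arhgef2, Myo1c and Kif21b (r of 0.99 each), those most like Olig2 were Jun, Fyn and Rgs10 (0.99 each), and those most like Nkx2-2 were Gpsm1, Plekhh1 and Nle1 (0.99 each). Pdgfra was most like Ppp1r16b, Gad1 and Cnst (0.99 each). Cspg4 was most like Kcnj4 (0.97), Maff (0.94) and Cerk (0.92), a looser likeness than for the others. Gpr17 was most like Rftn2, Pcdhb7 and Inpp5k (1.00 each), Cnp most like Pcdhb9, Tnfrsf19 and Elmod3 (1.00 each), and Mbp most like Col9a2, Zfp37 and Pcdhb13 (0.99 each).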

How the data were processed

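RNA was sequenced on BGISEQ-500RS with a low-input library in 12 libraries, 2 for each of 2 lines in 3 conditions. The authors trimmed reads (Trim Galore 0.5.0 per the labels), estimated abundance with kallisto 0.44.0 against the mm10 transcriptome, summed to genes with Tximport and deposited estimated counts as whole numbers. A second table deposited by the authors holds log2 values (the regularized logarithm of DESeq2 1.27.32), used here for an alternative only. All sample columns were used.

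Genes were kept by edgeR's filterByExpr (13312 of 17365), scaled by TMM, and tested in 1 quasi-likelihood model of the 12 libraries (glmQLFit) whose terms were condition and line. Interactions and values within lines came from a fit of 6 groups. All tests were two-sided, Benjamini-Hochberg adjustment ran over the tested genes, and SE is the log2 fold change divided by the root of its F. The line term keeps the stable line difference out of the spread. R 4.3.3, edgeR 4.0.16, limma 3.58.1, DESeq2 1.42.0 and Python 3.11.15 were used. The steps were tested on simulated data. Totals of 18069052 to 19451818 counts make 1 count worth 0.0514 to 0.0553 CPM. Kallisto divides reads between transcripts that share sequence, so counts of overlapping genes are estimates.

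The genes and lists were chosen with earlier results of these data known. Named were all 9 genes, a fixed set of further genes, and up to 3 largest rises and falls per list and comparison at an adjusted p under 0.05 and a mean of at least 1 CPM, with the 3 genes most correlated with each tested gene. Of the lists, 13 genes had no row and are not analysed here. Some genes that this rule names are not reported here. Comparing Olig1 and Olig2 proteins was planned and not run. Alternatives were the Wald test of DESeq2, its size factors in edgeR, scaling by library size, limma on the log2 table, no filter, no line term, a replicate block, the compared libraries only, each line alone, each library left out in turn and the study's fold threshold.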

Additional observations from a re-analysis of the deposited data

Results flagged for a closer look

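Cnp in BMP/FGF was marked because 1 of its 4 libraries stood apart: replicate 1 of BL6 was at 449 CPM (448.7) and the others at 463.6 to 466.5, with a gap of 0.837 of the range, above Dixon's critical value for 4 samples. Among the 27 groups examined, chance marks about 1 in 20.

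The other results were marked because the lines differed by the interaction test (BL6 minus ANS4, log2 scale). For BMP against EGF/FGF these were Gpr17 (2.52), Pdgfra (0.98), Cspg4 (0.98), Olig2 (0.71), Olig1 (0.68) and Cnp (0.35). For BMP/FGF against EGF/FGF they were Gpr17 (1.69) and Cspg4 (0.69). For BMP/FGF against BMP they were Gpr17 (-0.83), Pdgfra (-0.80), Olig1 (-0.79), Olig2 (-0.77) and Nkx2-2 (-0.52). In each line the BMP libraries are shared by the first and last of these comparisons, and the EGF/FGF libraries by the first and second.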

How the results depend on the processing

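Of 1128 values recomputed under the alternatives, 1065 kept their direction and side of the threshold, 35 lost the threshold, 14 gained it and 14 changed sign. With the fold threshold added and Mbp left aside, only Gpr17 was called in each comparison with EGF/FGF, against 17.8% and 16.7% of all genes. None of the 8 tested genes was called between the quiescent states, against 1.59%. For the 3 interactions the counts were 1, 1 and 0, and between lines 0. For BMP/FGF against BMP, 5 genes, all lower, were called in BL6 alone (40.5% of all genes) and 3, of which 2 higher, in ANS4 alone (35.8%). With 1 library left out, the count between the quiescent states ran from 1 to 3 and that between lines from 1 to 4. In these fits Olig2 between the quiescent states ran from -0.0545 to 0.19 and Nkx2-2 from -0.16 to 0.0022. The Mbp interaction ran from -0.35 to 1.22 for BMP and from -0.65 to 0.91 for BMP/FGF against EGF/FGF, and its line difference from -0.0169 to 0.50. Between the quiescent states Olig1 was at 0.11 and Nkx2-2 at 0.19 in ANS4 alone, and Olig2 at -0.31 in BL6 alone (adjusted p = 0.00936). Gpr17 between lines was at 0.047 with limma on the log2 table, which also put Mbp at 1.81 in BMP and 1.46 in BMP/FGF against EGF/FGF (3.01 and 2.59 with edgeR). The causes were not tested. Mbp and Sox10 are limited by depth, at 15 counts or fewer in EGF/FGF.

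With the replicate number as a block, 1 gene in place of 3 was called between lines, and the other counts were the same. Deviations of same-numbered libraries correlated at 0.306, -0.179 and -0.123 in ANS4 and at -0.0654, 0.0073 and -0.0817 in BL6 (9967 genes), so the numbers were not taken to pair cultures. An alternative with the numbers of ANS4 in BMP/FGF crossed was chosen after seeing the data. In it, Mbp left aside, all the tested lineage genes were called in both comparisons with EGF/FGF. Between the quiescent states 2 genes were called.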
